A study of Mus musculus with 4 samples.

Results

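Secretory and membrane proteins are folded in the endoplasmic reticulum (ER), and 33 genes of its chaperones and of the unfolded protein response were followed here in ageing mouse heart. Members were taken by gene symbol from a list: the sensors and transcription factors of the ATF6, IRE1-XBP1 and PERK-ATF4 arms, the chaperones and disulfide isomerases, and the genes of ER-associated degradation. All 33 stood on 1 entry each among the 28723 genes of the deposited table, and all 33 were among the 12027 genes tested. Poly(A)-selected RNA was sequenced from whole hearts of C57BL/6J mice aged 12 months (2 libraries) and 8 weeks (2 libraries). Every library is labelled wild type and untreated, although the titles of the 12-month libraries begin with FLOX and those of the 8-week libraries do not. Whether the libraries of an age are separate animals is not stated in the labels, and the p-values therefore reflect the spread among these libraries, which may be technical. Age is given in a label field named batch, so age and any difference in handling between the groups cannot be told apart.

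When unfolded proteins accumulate in the ER, 3 membrane sensors respond. ATF6 moves to the Golgi, where it is cut and releases a transcription factor. IRE1 splices the Xbp1 mRNA, which then encodes an active transcription factor, and PERK phosphorylates the translation factor eIF2α, which lowers protein synthesis while favouring translation of ATF4. ATF6 and XBP1 are known to raise chaperone and degradation genes through ER stress response elements in their promoters, whereas ATF4 raises genes such as Ddit3 and Trib3. In heart muscle the ER is continuous with the sarcoplasmic reticulum, which stores the calcium for contraction, and ATF6 is known in mouse heart as an inducer of protective chaperones. Gene-level RNA values measure neither the cutting of ATF6, nor the splicing of Xbp1, nor the translation of ATF4.

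The ER stress response element (ERSE) is shown here because it is the sequence through which ATF6, with the CCAAT-binding factor NF-Y, is known to act. Windows from 250 bases before to 50 bases after the transcription start were found in RefSeq sequence (GRCm38.p6) for 28 of the 33 members, and Atf6, Hyou1, Manf, Derl1 and Ppp1r15b had no entry. The element was searched on both strands as CCAAT, any 9 bases and CCACG. It stood in 8 of the 29 windows of these 28 members, 1 window in each of 8 genes, against 0.119% of all 32851 promoter windows. Hsp90b1 held it at 2 places. Such elements are known in promoters of chaperone and degradation genes. A share above that of all windows, here and for the shorter form below, was thus foreseeable and is no result of these libraries. The 9 matches lay 26 to 212 bases before the RefSeq start. Each is printed 5′ to 3′ in the direction of its gene, with the CCAAT and CCACG boxes, or their reverse complements ATTGG and CGTGG, in capitals. The matches lie at chr2:34772025-34772043 (plus strand, Hspa5), chr10:86705638-86705656 and chr10:86705533-86705551 (minus, Hsp90b1), chr11:50325800-50325818 (minus, Canx), chr8:84847075-84847093 (minus, Calr), chr14:118937827-118937845 (plus, Dnajc3), chr12:17266491-17266509 (plus, Pdia6), chr15:88819520-88819538 (plus, Creld2) and chr19:6046532-6046550 (plus, Syvn1).
Hspa5: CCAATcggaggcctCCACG
Hsp90b1, far: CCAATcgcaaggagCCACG
Hsp90b1, near: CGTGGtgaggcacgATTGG
Canx: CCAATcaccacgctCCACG
Calr: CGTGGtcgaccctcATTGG
Dnajc3: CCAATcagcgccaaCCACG
Pdia6: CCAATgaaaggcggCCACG
Creld2: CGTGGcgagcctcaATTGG
Syvn1: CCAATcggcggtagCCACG

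The Hspa5 match lies before the RefSeq start but inside the gene as the deposited table bounds it. A shorter form, ERSE-II (ATTGG, any 1 base and CCACG), was found in Herpud1 at chr8:94386377-94386387 (plus strand) and in Dnajb11 at chr16:22857852-22857862 (plus), against 0.0365% of all windows. In Herpud1 it lay 52 to 42 bases before the start, and in Dnajb11 it lay 8 to 18 bases after it.
Herpud1: ATTGGGCCACG
Dnajb11: ATTGGCCCACG

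To show the elements in place, the bases before the start are given for Hsp90b1 (chr10:86705510-86705694, minus strand), Canx (chr11:50325674-50325923, minus) and Herpud1 (chr8:94386179-94386428, plus), with ERSE in capitals in Hsp90b1 and Canx and ERSE-II in capitals in Herpud1. Bases that the deposited table counts to the gene are left out.
Hsp90b1: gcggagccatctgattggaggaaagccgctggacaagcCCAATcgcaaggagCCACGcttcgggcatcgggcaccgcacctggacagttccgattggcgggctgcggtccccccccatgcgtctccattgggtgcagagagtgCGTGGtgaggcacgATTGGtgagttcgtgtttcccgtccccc
Canx: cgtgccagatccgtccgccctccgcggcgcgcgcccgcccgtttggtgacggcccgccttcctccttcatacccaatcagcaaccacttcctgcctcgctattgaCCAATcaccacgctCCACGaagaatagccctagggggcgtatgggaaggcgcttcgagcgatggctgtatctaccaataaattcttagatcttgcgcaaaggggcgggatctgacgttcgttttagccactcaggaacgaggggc
Herpud1: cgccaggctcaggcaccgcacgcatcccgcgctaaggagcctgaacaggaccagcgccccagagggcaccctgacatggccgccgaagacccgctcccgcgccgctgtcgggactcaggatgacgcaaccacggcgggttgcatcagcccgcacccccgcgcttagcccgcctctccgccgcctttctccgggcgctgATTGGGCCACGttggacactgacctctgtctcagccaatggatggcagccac

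Other elements were found in few members, too few to compare with their shares of all windows. The XBP1 element UPRE (TGACGTGG, either strand) was found in 0 of 28 members and in 0.676% of all windows. The ATF4 element CARE (TGATGNAA) was found in Herpud1 and Trib3, against 3.97% of all windows, and the cyclic AMP response element (TGACGTCA) in Ppp1r15a, against 1.79%. CARE and ERSE-II did not overlap in Herpud1. These are letter matches only, and a window without a match says only that these letters are not in it.

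The 12-month libraries held 55411355 and 51328364 estimated counts, and the 8-week libraries held 52866260 and 63828074. Mitochondrially encoded genes took 23.71% and 23.25% of the counts at 12 months, against 27.08% and 27.26% at 8 weeks. Cardiomyocyte markers (summed FPKM, fragments corrected for transcript length and sequencing depth, over 10 genes) were at 14977 and 14814 at 12 months, against 15657 and 15555 at 8 weeks, so the defining genes of the labelled tissue were abundant, with 4 of the 10 called higher and 4 lower. Markers of some other cell types also differed between the groups. Atrial markers were at 4445 and 1706 summed FPKM at 12 months, against 289 and 293 at 8 weeks, and 8 of 8 were called higher. Endothelial markers were at 232 and 220 at 12 months, against 422 and 422 at 8 weeks, and 10 of 10 were called lower. Fat-cell markers (167 and 172 at 12 months, against 34.9 and 30.3 at 8 weeks) had 7 of 9 called higher, fibroblast markers (337 and 299 at 12 months, against 245 and 240 at 8 weeks) 3 of 10, and macrophage markers (171 and 229 at 12 months, against 174 and 151 at 8 weeks) 5 of 9. The macrophage sums overlapped between the ages, and 20.1% of all tested genes were called higher. The 12-month libraries also stood apart from each other, with atrial markers higher in replicate 1 and plasma cell markers higher in replicate 2. Markers of plasma cells, antibody-secreting cells with a large ER, summed to 33.3 and 1778 FPKM in 12-month replicates 1 and 2, against 28.9 and 27.8 at 8 weeks. Of the 12 plasma cell markers, 2 (Tnfrsf17 and Derl3) were at 0 in 12-month replicate 1 and 0 were at 0 in replicate 2, against 1 and 0 in the 8-week libraries. The part of these cell types in the results that follow was not tested, and in whole-heart RNA a change in the number of cells of a type and a change in RNA per cell cannot be told apart.

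Most genes of the ER folding machinery were higher in the 12-month libraries, relative to the other RNA of each library, and no member was called lower. Of the 33 members, 17 were higher at 12 months by edgeR's quasi-likelihood test at an adjusted p below 0.05, 0 were lower and 16 did not pass, which is 51.5% higher. Across all 12027 tested genes 20.1% were called higher and 17.5% lower, 37.6% in all. The median log2 fold change of the members was 0.31, against 0.01 over all tested genes, and 25 of 33 had a fold above 1. Changes were modest: the 17 called members rose 1.22-fold to 2.11-fold, and only Atf6 reached 2-fold. Summed over the 33 members, the level was 874 and 885 FPKM at 12 months, against 638 and 657 FPKM at 8 weeks. The ages did not overlap in FPKM for 25 members, 21 of them higher at 12 months and 4 lower; among all tested genes 72.5% did not overlap, 41.4% with 12 months higher and 31.1% with 12 months lower. With either 8-week library left out, 6 members were called higher (replicate 1 or replicate 2), and with 12-month replicate 1 or 2 left out 17 or 18 were, 14 or 16 of them among the original 17. Atf6, Hspa5, Hyou1, Canx and Dnajc3 were called in all 17 alternative analyses, and all 17 called members kept their direction in them.

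**Figure D1:**
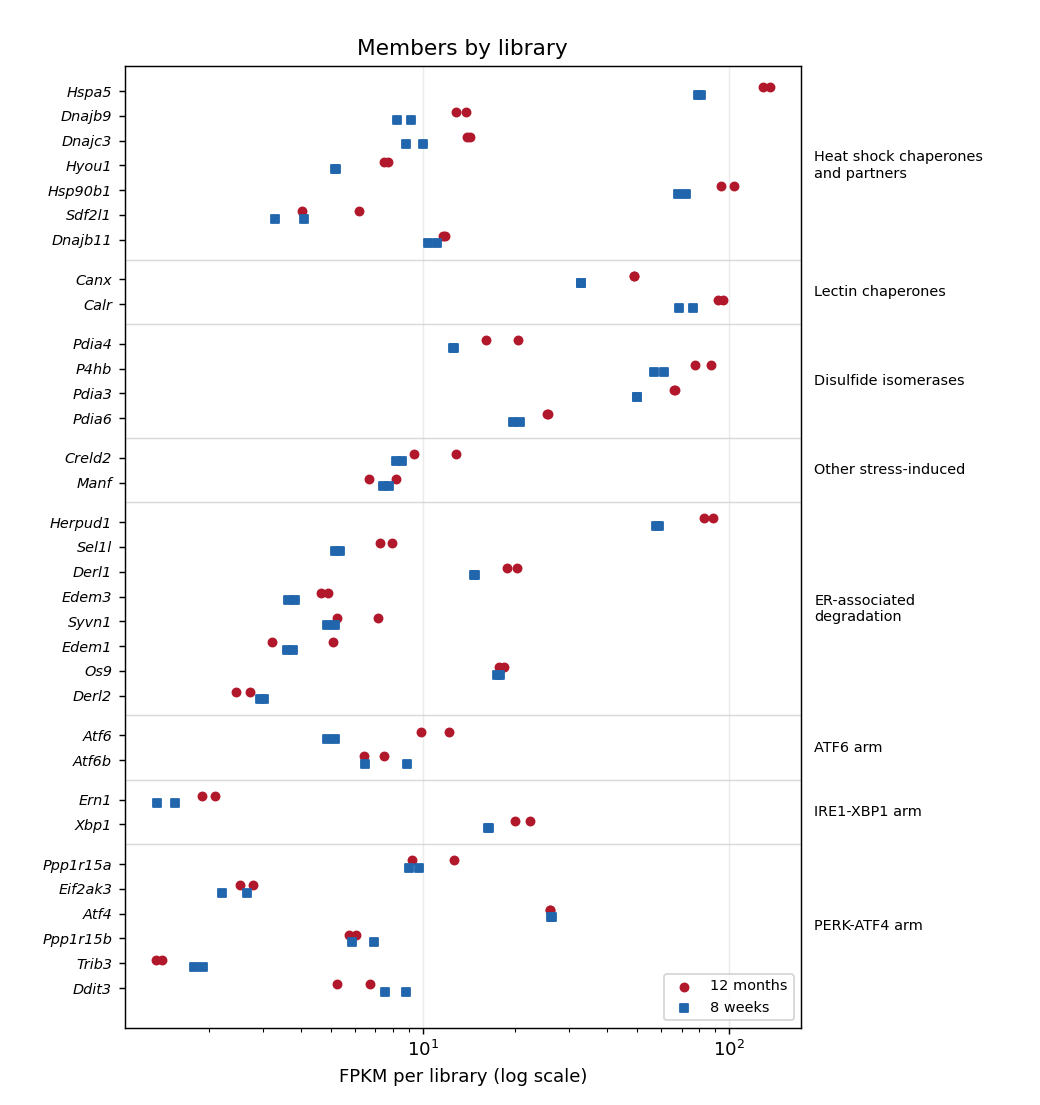
FPKM of each of the 33 members in each library, on a log scale, with 12-month libraries as circles and 8-week libraries as squares, grouped by role. The folding genes lie to the right at 12 months (summed FPKM 614 and 623, against 425 and 445 at 8 weeks), while the summed level of the PERK-ATF4 genes was 55 and 50.6 at 12 months, against 55.8 and 53.1 at 8 weeks, with Ddit3 and Trib3 to the left at 12 months.

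The heat shock family chaperones of the ER lumen and their partners rose in 5 of 7 cases, with a median log2 fold change of 0.49. Hspa5 encodes BiP, the main chaperone of the ER lumen and the protein that holds the 3 sensors inactive at rest (chromosome 2, 34771970 to 34777547). Its level was 129 and 136 FPKM at 12 months, against 79.1 and 81.2 FPKM at 8 weeks. Each 12-month library stood well above both 8-week libraries, and Hspa5 rose 1.59-fold (log2 fold change 0.67 ± 0.07, edgeR adjusted p = 0.00199). It was the most abundant member, with 15.1% of the members' summed FPKM at 12 months and 12.4% at 8 weeks. Hspa5 ranged over a log2 fold change of 0.56 to 0.86 in the alternatives.

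Hsp90b1, the ER form of the Hsp90 chaperone, was at 94 and 104 FPKM at 12 months, against 68 and 72.4 FPKM at 8 weeks. It rose 1.36-fold (log2 0.44 ± 0.08, edgeR adjusted p = 0.00939). Hyou1, a large Hsp70-like protein that exchanges the nucleotide of BiP, was at 7.48 and 7.67 FPKM at 12 months, against 5.2 and 5.15 FPKM at 8 weeks, and rose 1.41-fold (log2 0.49 ± 0.07, edgeR adjusted p = 0.00411). Neither gene overlapped between the ages. The J-domain co-chaperones that feed BiP with clients divided. Dnajb9 was at 13.8 and 12.8 FPKM at 12 months, against 8.26 and 9.12 FPKM at 8 weeks (1.47-fold, edgeR adjusted p = 0.00807). Dnajc3, which in cell culture also restrains PERK, was at 14.2 and 13.9 FPKM at 12 months, against 10 and 8.83 FPKM at 8 weeks (1.43-fold, edgeR adjusted p = 0.00671). Both rose with a wide gap between the ages. Dnajb11 was at 11.6 and 11.8 FPKM at 12 months, against 10.4 and 11.1 FPKM at 8 weeks, a log2 fold change of 0.06 ± 0.08 that did not pass (edgeR adjusted p = 0.556), with the ERSE-II match given above. Sdf2l1, which works in complex with Dnajb11, was at 4.02 and 6.18 FPKM at 12 months, against 3.29 and 4.08 FPKM at 8 weeks (edgeR adjusted p = 0.255). Its ages overlapped, with the lower 12-month library below the higher 8-week library. Without 8-week replicate 1 the edgeR adjusted p was 0.103 for Hsp90b1 and 0.0614 for Dnajb9, and without 8-week replicate 2 it was 0.0679 for Hsp90b1.

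All 6 lectin chaperones and disulfide isomerases were called higher. Calnexin and calreticulin, the membrane-bound and soluble chaperones that hold glycoproteins during folding, are encoded by Canx and Calr. Canx was at 48.9 and 48.8 FPKM at 12 months, against 32.9 and 32.8 FPKM at 8 weeks, with close replicates at both ages, and rose 1.43-fold (log2 0.51 ± 0.07, edgeR adjusted p = 0.00399). Calr, which also binds calcium in the ER lumen, was at 95.2 and 91.9 FPKM at 12 months, against 68.6 and 76.2 FPKM at 8 weeks, and rose 1.24-fold (log2 0.31 ± 0.09, edgeR adjusted p = 0.0341). The Calr call is the weaker: it was lost in 7 of the 17 alternatives, with an edgeR adjusted p of 0.144 once the GC trend was removed, 0.0603 without 12-month replicate 1, 0.245 without 8-week replicate 1 and 0.0988 without 8-week replicate 2.

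The disulfide isomerases, which form and rearrange the disulfide bonds of secretory proteins, had a median log2 fold change of 0.39. P4hb was at 87.5 and 77.6 FPKM at 12 months, against 56.8 and 61.3 FPKM at 8 weeks (1.34-fold, edgeR adjusted p = 0.0187). Pdia3, the partner of calnexin and calreticulin, was at 66.5 and 66 FPKM at 12 months, against 50.1 and 49.9 FPKM at 8 weeks (1.27-fold, edgeR adjusted p = 0.0131). Neither overlapped between the ages. Pdia4 was at 16.1 and 20.4 FPKM at 12 months, against 12.5 and 12.6 FPKM at 8 weeks (1.40-fold, edgeR adjusted p = 0.0228). Pdia6, which in cell culture acts on the sensor IRE1, was at 25.7 and 25.5 FPKM at 12 months, against 19.7 and 20.7 FPKM at 8 weeks (1.22-fold, edgeR adjusted p = 0.0213). Pdia4 thus varied most between the 12-month libraries and Pdia6 changed least. Leaving out either 8-week library ended all 4 calls, with edgeR adjusted p from 0.0822 to 0.138, leaving out 12-month replicate 1 ended that of Pdia6 (0.0672), and removing the GC trend ended those of Pdia3 (0.0808) and Pdia6 (0.148). With no expression minimum the edgeR adjusted p was 0.0502 for P4hb and 0.0628 for Pdia6.

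Creld2 and Manf, ER stress-induced proteins that can be secreted, did not pass. Creld2 was at 9.32 and 12.8 FPKM at 12 months, against 8.55 and 8.16 FPKM at 8 weeks (log2 0.34 ± 0.17, edgeR adjusted p = 0.153). Manf, a growth-factor-like protein that binds BiP, was at 6.65 and 8.18 FPKM at 12 months, against 7.4 and 7.76 FPKM at 8 weeks (log2 -0.09 ± 0.11, edgeR adjusted p = 0.543). Manf overlaps Rbm15b on its own strand (954 and 903 counts at 12 months, 1085 and 1347 at 8 weeks). It also overlaps Dcaf1 on the opposite strand (1903 and 1637 counts at 12 months, 1236 and 1419 at 8 weeks). Reads of Manf may be shared with either gene.

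**Figure D2:**
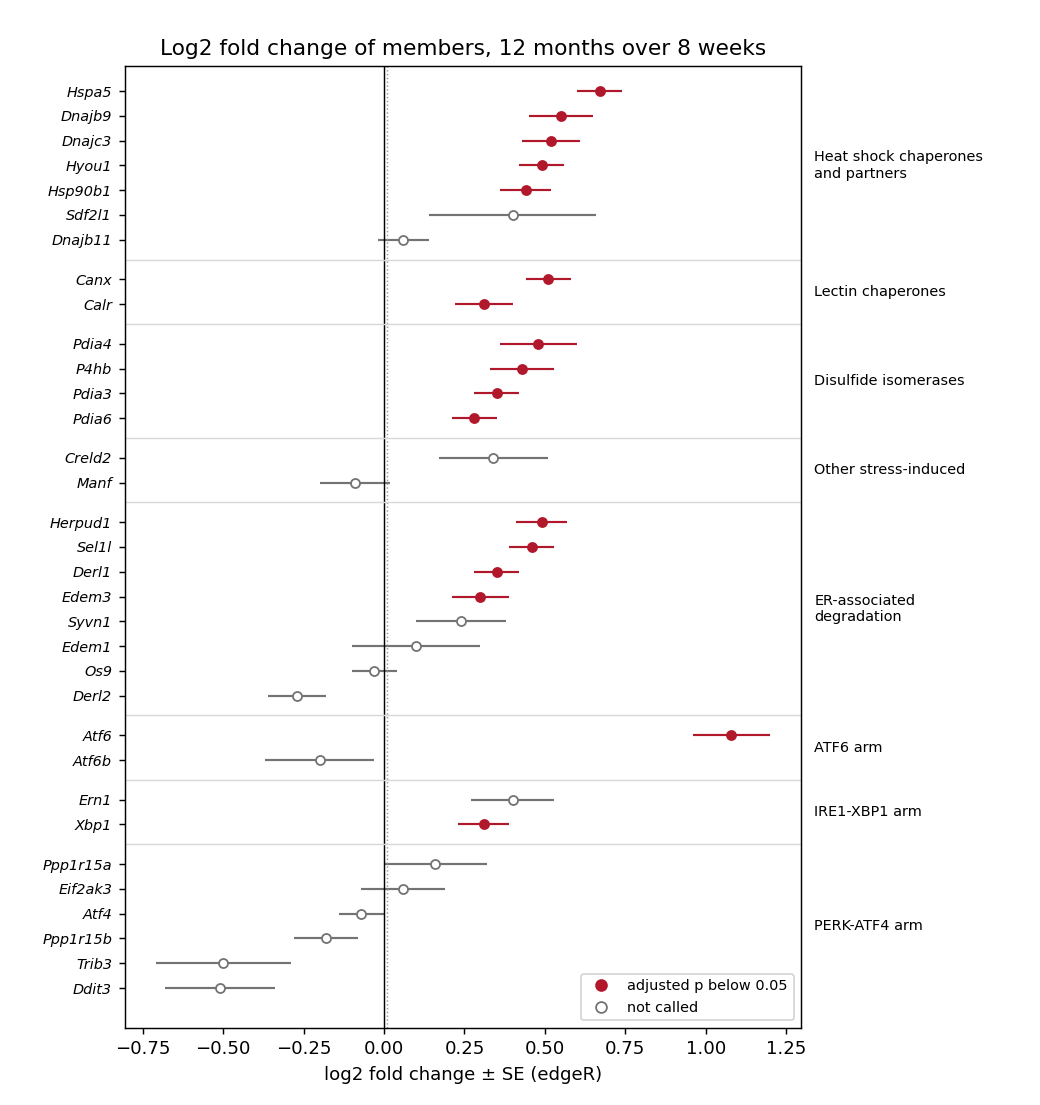
Log2 fold change of each member, 12 months over 8 weeks, with bars of ± SE from edgeR and the members grouped by role; filled points passed an adjusted p of 0.05 and the dotted line is the median of all tested genes (0.01). Atf6 is farthest to the right at 1.08, the lectin chaperones and disulfide isomerases are all filled, and 0 of the 6 PERK-ATF4 genes are. Of all tested genes 20.1% were called higher and 17.5% lower.

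Genes of ER-associated degradation, which returns misfolded proteins to the cytosol for the proteasome, were divided, with 4 of 8 called higher and a median log2 fold change of 0.27. The share called higher over all tested genes was 20.1%. Herpud1, a membrane protein of the retrotranslocation complex, was at 88.7 and 82.7 FPKM at 12 months, against 59.2 and 57.9 FPKM at 8 weeks, and rose 1.41-fold (log2 0.49 ± 0.08, edgeR adjusted p = 0.00642). It was the most abundant gene of the group, and its promoter holds both an ERSE-II and a CARE match. Sel1l, the adaptor of the ubiquitin ligase complex, was at 7.27 and 7.91 FPKM at 12 months, against 5.38 and 5.18 FPKM at 8 weeks (1.38-fold, edgeR adjusted p = 0.0055). Derl1, a membrane protein of the same complex, was at 18.8 and 20.3 FPKM at 12 months, against 14.7 and 14.8 FPKM at 8 weeks (1.27-fold, edgeR adjusted p = 0.0117). Edem3, which trims mannose from misfolded glycoproteins, was at 4.91 and 4.64 FPKM at 12 months, against 3.62 and 3.82 FPKM at 8 weeks (1.23-fold, edgeR adjusted p = 0.0422). These 4 genes did not overlap between the ages. Without 8-week replicate 2 the edgeR adjusted p was 0.0659 for Herpud1, 0.0507 for Sel1l, 0.0814 for Derl1 and 0.116 for Edem3. Without 8-week replicate 1 it was 0.0557 for Herpud1, 0.0798 for Derl1 and 0.199 for Edem3, and without 12-month replicate 1 it was 0.139 for Edem3. The Edem3 call also ended with the GC trend removed (0.153), the length trend removed (0.0945) and no expression minimum (0.106).

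The other 4 degradation genes did not pass. Syvn1, the ubiquitin ligase that pairs with Sel1l, was at 5.23 and 7.12 FPKM at 12 months, against 4.86 and 5.18 FPKM at 8 weeks (log2 0.24 ± 0.14, edgeR adjusted p = 0.242). Edem1, another mannose-trimming factor, was at 3.21 and 5.08 FPKM at 12 months, against 3.78 and 3.6 FPKM at 8 weeks (log2 0.10 ± 0.20, edgeR adjusted p = 0.703), so the 8-week values lay between those of the 12-month libraries. Os9, a lectin that recognises trimmed glycans, was at 17.7 and 18.4 FPKM at 12 months, against 17.9 and 17.5 FPKM at 8 weeks (log2 -0.03 ± 0.07, edgeR adjusted p = 0.726). Derl2 went the other way, at 2.45 and 2.73 FPKM at 12 months, against 2.93 and 3.04 FPKM at 8 weeks (log2 -0.27 ± 0.09, edgeR adjusted p = 0.0633). Its ages did not overlap, and the edgeR adjusted p was 0.0292 with the GC trend removed and 0.0374 with the length trend removed. Reads of Syvn1 may be shared with Mrpl49 on the opposite strand, since the strand setting of the counting is not given in the sources used here.

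Atf6 itself had the largest change of any member. The gene (chromosome 1, 170704674 to 170867771, minus strand) was at 12.2 and 9.86 FPKM at 12 months, against 4.88 and 5.17 FPKM at 8 weeks. Both 12-month libraries were far above both 8-week libraries, although the 12-month libraries differed from each other by 0.34 on the log2 scale. The 2.11-fold rise (log2 1.08 ± 0.12, edgeR adjusted p = 0.00219) was exceeded by 3.47% of all tested genes. It was called in all 17 alternatives, with a log2 fold change of 0.88 to 1.24. Its relative Atf6b, a weaker transcription factor that is cut in the same way, was at 6.44 and 7.47 FPKM at 12 months, against 6.47 and 8.88 FPKM at 8 weeks (log2 -0.20 ± 0.17, edgeR adjusted p = 0.371). On the length-scaled FPKM level Atf6 stood at 1.89 and 1.32 times Atf6b at 12 months, against 0.75 and 0.58 times at 8 weeks. The order of the pair was thus turned round on that scale only. In estimated counts Atf6 exceeded Atf6b at 12 months (6731 and 5052 against 1062 and 1144) and at 8 weeks (2610 and 3342 against 1034 and 1715).

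In the IRE1-XBP1 arm, Xbp1, the transcription factor, rose and Ern1, which encodes the sensor IRE1α, did not pass. Xbp1 was at 20 and 22.4 FPKM at 12 months, against 16.4 and 16.3 FPKM at 8 weeks, and rose 1.24-fold (log2 0.31 ± 0.08, edgeR adjusted p = 0.0223). The call was lost without 12-month replicate 2, the library with the plasma cell markers (log2 0.25, edgeR adjusted p = 0.0681), and without 8-week replicate 1 (0.109) or replicate 2 (0.119). Ern1 was at 2.1 and 1.9 FPKM at 12 months, against 1.55 and 1.35 FPKM at 8 weeks (log2 0.40 ± 0.13, edgeR adjusted p = 0.0598). Its ages did not overlap, and it was called in 5 of the 16 alternatives that tested it, DESeq2 among them (adjusted p = 0.0479). These counts do not separate the spliced from the unspliced Xbp1 mRNA.

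In the PERK-ATF4 arm 0 of 6 genes were called in either direction, and their median log2 fold change was -0.12. Over all tested genes 20.1% were called higher and 17.5% lower, and 6 genes are too few to set a count of 0 apart from these shares. With FPKM rescaled to one sum, which moved the median of all tested genes to 0.16, the uncalled Atf4 and Ppp1r15b turned to 0.13 and 0.03. Eif2ak3, which encodes PERK, was at 2.53 and 2.78 FPKM at 12 months, against 2.21 and 2.67 FPKM at 8 weeks (log2 0.06 ± 0.13, edgeR adjusted p = 0.739). Atf4 was at 26 and 26 FPKM at 12 months, against 26.3 and 26.2 FPKM at 8 weeks (log2 -0.07 ± 0.07, edgeR adjusted p = 0.437). All 4 Atf4 values lay close together, with the 12-month libraries marginally lower. Ddit3 encodes CHOP, a transcription factor that promotes cell death under lasting stress, and Trib3 encodes a pseudokinase induced by ATF4 and CHOP. Ddit3 was at 6.7 and 5.23 FPKM at 12 months, against 8.8 and 7.54 FPKM at 8 weeks (log2 -0.51 ± 0.17, edgeR adjusted p = 0.063), and Trib3 was at 1.34 and 1.41 FPKM at 12 months, against 1.92 and 1.79 FPKM at 8 weeks (log2 -0.50 ± 0.21, edgeR adjusted p = 0.11). Neither overlapped between the ages, with the 12-month libraries lower in both genes. Ddit3 was called lower in 5 of 17 alternatives, among them DESeq2 (adjusted p = 0.0359) and edgeR without 12-month replicate 1 (adjusted p = 0.0182), and it overlaps Mars1 on the opposite strand (2932 and 2718 counts at 12 months, 2491 and 3287 at 8 weeks).

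The 2 phosphatase subunits that reverse the PERK signal at eIF2α were not called either. Ppp1r15a, the stress-induced subunit, was at 12.6 and 9.22 FPKM at 12 months, against 9.72 and 9.04 FPKM at 8 weeks (log2 0.16 ± 0.16, edgeR adjusted p = 0.463), and Ppp1r15b, the constitutive subunit, was at 5.72 and 6.03 FPKM at 12 months, against 6.9 and 5.86 FPKM at 8 weeks (log2 -0.18 ± 0.10, edgeR adjusted p = 0.224). The ages overlapped in both. The high Ppp1r15a value came from 12-month replicate 1: with replicate 2 left out the log2 fold change was 0.39 (edgeR adjusted p = 0.0194), and with replicate 1 left out it was -0.12.

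Set against each other, the 13 folding genes (heat shock family, lectin chaperones and disulfide isomerases) summed to 11.2 and 12.3 times the 6 PERK-ATF4 genes at 12 months, against 7.61 and 8.39 times at 8 weeks, on the FPKM scale. The ratio was higher in both 12-month libraries. It is built from the same libraries as the calls above, so it restates them and adds no separate support. The exact two-sided permutation test gave p = 0.333, the smallest that 2 libraries against 2 allow, so the test could not decide. For 1 pair of these genes, the ratio of Hspa5 to Atf4 was 4.97 and 5.24 at 12 months, against 3.01 and 3.10 at 8 weeks. Members with and without an element were described side by side. Of the 10 members with an ERSE or ERSE-II match, 7 were called higher and 3 (Creld2, Syvn1 and Dnajb11) were not. Of the 18 with a window but neither match, 7 were called higher and 11 were not. The 5 members without a window are in neither group: Atf6, Hyou1 and Derl1 were called higher, and Manf and Ppp1r15b were not. Over all tested genes 20.1% were called higher, and no link between the elements and the calls was tested.

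Several members differed between the 12-month libraries. Edem1, Sdf2l1, Creld2, Syvn1, Pdia4 and Manf were higher in 12-month replicate 2 than in replicate 1, by 0.63, 0.59, 0.42, 0.41, 0.31 and 0.26 on the log2 scale of normalised counts, against a median absolute difference of 0.12 over the members at 12 months and 0.08 at 8 weeks. Others went the other way: replicate 2 minus replicate 1 was -0.49 for Ppp1r15a, -0.39 for Ddit3 and -0.34 for Atf6. Of the 33 members, 17 were higher in 12-month replicate 2. Replicate 2 is the library with the high plasma cell markers, such as Jchain, the joining chain of secreted antibodies (1.16 and 38 FPKM at 12 months, 0.848 and 0.9 FPKM at 8 weeks). Replicate 1 is that with the higher atrial markers. The part of either cell type in these values was not tested. With 12-month replicate 1 left out, so that replicate 2 stood alone, Edem1, Creld2 and Syvn1 were called higher, with log2 fold changes of 0.37, 0.52 and 0.41 (edgeR adjusted p = 0.0285, 0.0332 and 0.0187). With replicate 2 left out, their log2 fold changes were -0.24, 0.12 and 0.02. Hspa5 hardly moved, at 0.67 without replicate 1 and 0.65 without replicate 2, and of the 17 called members 14 remained called without replicate 1 (Calr, Edem3 and Pdia6 lost) and 16 without replicate 2 (Xbp1 lost). In each of these fits the lone 12-month library is assumed to vary like the 8-week libraries.

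**Figure D3:**
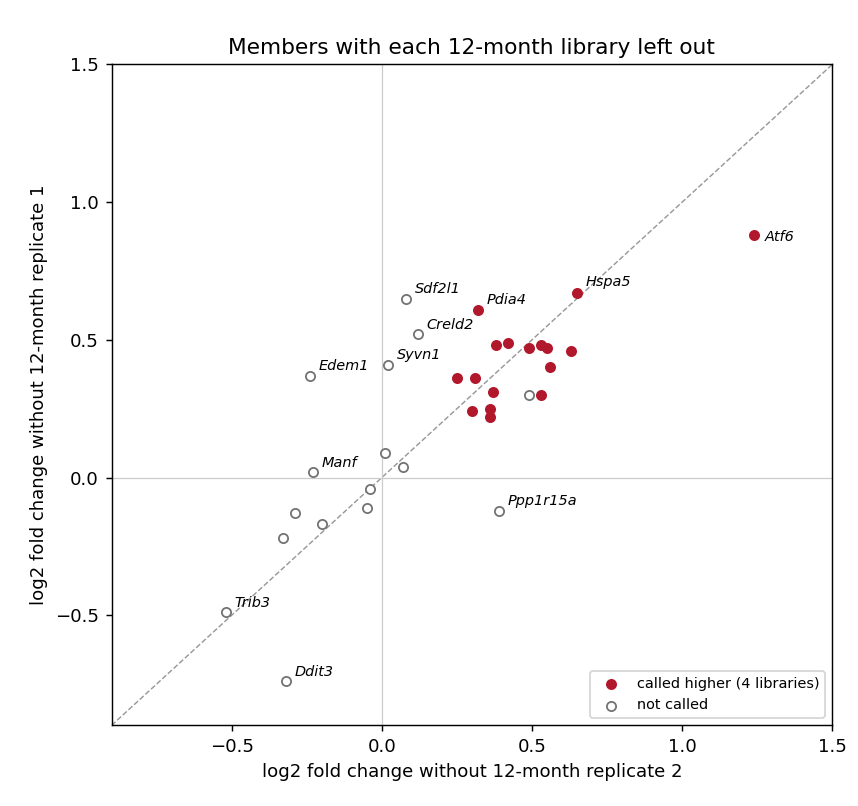
Log2 fold change of each member, 12 months over 8 weeks, with 12-month replicate 2 left out (horizontal axis) and with 12-month replicate 1 left out (vertical axis); filled points were called higher with all 4 libraries and the dashed line marks equal values. Edem1, Sdf2l1, Creld2 and Syvn1 lie above the line, Atf6 (1.24 and 0.88) and Ppp1r15a (0.39 and -0.12) lie below it, and Hspa5 lies close to it.

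Genes that work beside the members in the ER were read from further lists, which were chosen, as were the members, with earlier results of these data known. Over 180 tested genes of 7 such lists, members left out, 60 were called higher and 10 lower, with a median log2 fold change of 0.20. Transport between the ER and the Golgi had the largest share, with 16 of 27 genes higher and 0 lower (median 0.42). Its 3 genes with the smallest p were the cargo lectins Lman1 (log2 0.69 ± 0.07) and Lman2 (0.58 ± 0.07) and the vesicle coat gene Sec23a (0.85 ± 0.12). Calcium-binding proteins of the ER and sarcoplasmic reticulum followed, with 5 of 10 higher and 0 lower, led by Rcn2 (0.69 ± 0.08), Casq2 (0.70 ± 0.08) and Calu (0.79 ± 0.11). Casq2, the calcium store protein of the cardiac sarcoplasmic reticulum, was at 307 and 288 FPKM at 12 months, against 179 and 172 FPKM at 8 weeks. Hspa5 stood at 0.42 and 0.47 times the Casq2 level at 12 months, against 0.44 and 0.47 times at 8 weeks, so the FPKM ratio of the pair overlapped between the ages.

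Protein entry into the ER and N-glycosylation had 11 of 31 genes higher and 1 lower (median 0.19). Srpr, the receptor of the signal recognition particle, rose by 0.73 ± 0.07 on the log2 scale, Ssr3 of the translocon by 0.68 ± 0.09 and Stt3b, a catalytic subunit of oligosaccharyltransferase, by 0.53 ± 0.07, whereas Srp14 fell by 0.35 on that scale. Degradation genes outside the members had 11 of 30 higher and 1 lower (median 0.20). The ubiquitin ligase Marchf6 (0.61 ± 0.08) and the p97 cofactor Nploc4 (0.60 ± 0.09) rose, and Aup1 fell by 0.35. Folding enzymes outside the members were divided, with 9 of 33 higher and 4 lower (median 0.11). The thioredoxin-like Tmx4 (0.72 ± 0.09) and Txndc5 (0.56 ± 0.08) and the prolyl isomerase Fkbp9 (0.52 ± 0.08) rose, while Tmx1, Ppib and Sdf2 fell by 0.52, 0.32 and 0.30.

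ATF4 targets outside the members had 5 of 27 higher and 2 lower (median 0.26), a share of 18.5% higher that is close to the 20.1% of all tested genes. Vldlr, a lipoprotein receptor, the tRNA synthetase Aars and the amino acid transporter subunit Slc3a2 rose by 0.60 ± 0.09, 0.40 ± 0.09 and 0.41 ± 0.09. The stress-induced genes Ddit4 and Stc2 fell by 0.67 and 0.68. Regulators and partners of the sensors had 4 of 23 higher, 1 of them the member Dnajc3, and 2 lower (median -0.01). Creb3l2, an ER-bound transcription factor that is cut like ATF6, was the largest rise of that list (1.01 ± 0.16, 14.2 and 10.1 FPKM at 12 months, against 5.78 and 5.81 FPKM at 8 weeks, edgeR adjusted p = 0.00604). The eIF2α kinase Eif2ak1 (0.47 ± 0.08) and the RNA ligase Rtcb (0.27 ± 0.08), which joins the spliced Xbp1 mRNA, also rose, and the adaptor Nck1 and the cell death gene Bax fell by 0.50 and 0.54.

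Chaperones of other compartments were compared by the same counts. Of the cytosolic heat shock genes 9 of 25 were higher and 1 lower (median 0.14), with Dnajb4 (0.86 ± 0.09), Hspa4 (0.78 ± 0.08) and Hsp90aa1 (0.51 ± 0.08) higher and the small heat shock protein gene Cryab lower by 0.28. Of the mitochondrial chaperones and proteases 8 of 12 were higher and 2 lower (median 0.39), with Dnaja3 (0.62 ± 0.08), Hspa9 (0.57 ± 0.08) and Hspd1 (0.55 ± 0.08) higher, and Clpp and Hspe1 fell by 0.42 and 0.25. These 12 include the transcription factor gene Atf5, which is neither a chaperone nor a protease, is also among the ATF4 targets and was not called. The members' share of 51.5% higher thus lies between these lists, and no difference between lists was tested.

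**Figure D4:**
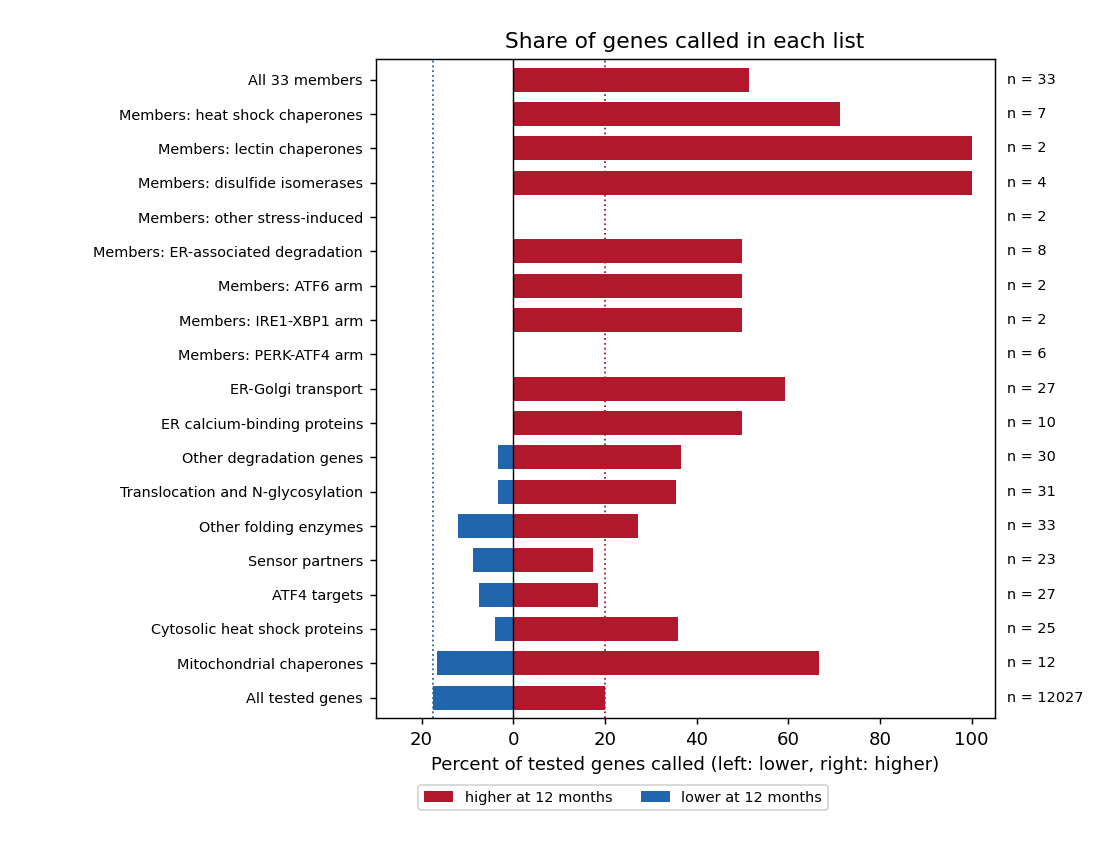
Percent of tested genes called higher (red, to the right) and lower (blue, to the left) at 12 months in each list, with n the genes tested and dotted lines at the shares over all tested genes (20.1% and 17.5%). Lectin chaperones and disulfide isomerases reach 100%, ER-Golgi transport 59.3% and all members 51.5%, while the PERK-ATF4 arm is at 0 in both directions.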

How the data were processed

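RNA of an integrity number above 7 was poly(A)-selected and made into 4 dUTP strand-marked heart libraries (2 per age), per the labels. The submitters' processing notes name cutadapt 1.9, HISAT2 2.2.1, StringTie 2.1.6, DESeq2, edgeR and GRCm38, and give no settings, strand mode or handling of multimapping reads. The deposited FPKM values, per the file headers, scale fragments by transcript length and library size. The deposited expected counts (estimated counts) are whole numbers, 0 of the count or FPKM columns lacked a sample and 0 entries lacked a gene identifier.

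Genes with a mean FPKM of at least 1 over the 4 libraries were tested with edgeR 4.0.16 (R 4.3.3): quasi-likelihood fit, TMM scaling, 12 months minus 8 weeks, no block, with a call below 0.05 after Benjamini-Hochberg adjustment over 12027 genes. Residual degrees of freedom were 2, prior degrees 4.03 and the common dispersion 0.0243. Each SE was obtained as the absolute log2 fold change over the square root of F. Member counts ranged from 167 to 32718. Counting error is thus small for most members, but not for those with the fewest counts, such as Trib3. Transcript length and GC content (medians 2809 nt and 50% for members, 3096 nt and 50.1% for all) came from GENCODE.

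Alternatives used DESeq2 1.42.0, limma 3.58.1, trends by mgcv 1.9.3, other scalings, minimums and pseudocounts, or left out each library. Members and lists were chosen with earlier results of these data known. All members are named, and from each further list up to 3 called genes per direction with the smallest p, of which 1 is not reported here. Lists share some genes. Of the members, 12 overlap another gene, 5 on the same and 10 on the opposite strand. Summaries used pandas 2.3.3 and numpy 2.4.6, the permutation test scipy 1.17.1 and the figures matplotlib 3.10.9, all under Python 3.11.15.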

Additional observations from a re-analysis of the deposited data

How the results depend on the processing

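All 17 members called higher kept their direction in the 17 alternatives, and 5 kept their call in all of them. Leaving out each library in turn gave 6 to 18 members higher, 0 to 1 lower, a member median of 0.27 to 0.31, and 1187 to 2514 genes higher and 890 to 2144 lower over the whole table; the low ends came without an 8-week library. Members called higher numbered 13 with the GC trend removed (Calr, Edem3, Pdia3 and Pdia6 lost), 15 with the length trend removed (Calr and Edem3 lost) and 13 with no minimum (Calr, Edem3, P4hb and Pdia6 lost). Members called lower numbered 1 with DESeq2 (Ddit3), 2 with the GC trend removed (Ddit3 and Derl2), 1 with the length trend removed (Derl2), 1 at a mean FPKM of at least 5 (Ddit3, 26 members tested) and 1 with robust empirical Bayes (Ddit3). The member median was 0.25 with the GC trend removed, 0.28 with the length trend removed, 0.35 by library totals alone, 0.37 by limma on log2(FPKM + 0.1), 0.35 by limma on log2(FPKM + 1), 0.48 by limma with FPKM rescaled to one sum, 0.34 at a mean FPKM of at least 0.1 and 0.34 with no minimum. Rescaling gave 3797 genes higher and 1095 lower over the whole table, and the minimum of 5 gave 1469 higher. Some of these fits also held fewer libraries or genes, and the cause of these shifts was not tested.

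Signs turned only for members that were not called. With the GC trend removed, Dnajb11 was at -0.01, Edem1 at -0.01 and Os9 at 0.04, and with the length trend removed Eif2ak3 was at -0.01. Os9 was at 0.00 by library totals, 0.02 by limma at a pseudocount of 0.1 and 0.02 at 1. Under rescaled FPKM Manf was at 0.09, Atf4 at 0.13, Atf6b at 0.01, Ppp1r15b at 0.03 and Os9 at 0.16. Over the fits that left out 1 library each, Manf ranged from -0.23 to 0.02, Ppp1r15a from -0.12 to 0.39, Edem1 from -0.24 to 0.37, Eif2ak3 from -0.06 to 0.20 and Atf6b from -0.41 to 0.04. No paired analysis was made because the labels give no pairing of libraries between the ages.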
